A study of Mus musculus with 8 samples.

Results

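The genes described are 8 ligand and receptor genes of the fibroblast growth factor (FGF) and hepatocyte growth factor (HGF) pathways, taken by gene name from the 36333 genes in the expression table. The ligands were Fgf2, Fgf7, Fgf10 and Hgf, and the receptors were Fgfr1, Fgfr2, Fgfr3 and Met. They were measured by poly-A mRNA sequencing in the ventral prostate of male FVB/N mice at 12 months of age. In the hSKP2-KI mice, the human SKP2 coding sequence, preceded by a P2A self-cleaving peptide, had been inserted into the first exon of the endogenous probasin gene, so that hSKP2 followed the probasin promoter, which is active in prostate epithelium. The gene lies on the X chromosome, and the hSKP2-KI males came from matings of heterozygous hSKP2-KI females with wild-type (WT) males. The paper does not state whether the WT males compared came from the same matings. Each genotype had 4 mice with 1 library per mouse, described by the labels as biological replicates. Which of the study's knock-in lines was sequenced is not given in the sources used here.

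In the prostate, growth signals pass between the stroma and the epithelium. FGF7 and FGF10 are made by stromal cells and act on the epithelial splice form of FGFR2, and HGF is likewise a stromal ligand whose receptor, MET, is carried by epithelial cells. FGF2 is a broadly acting ligand that binds FGFR1 among other receptors, and FGFR1 is prominent in mesenchymal cells. FGF ligands need heparan sulfate to bind their receptors, and HGF is made as an inactive precursor that proteases such as hepsin cleave. The values here are per gene, so the epithelial and mesenchymal splice forms of Fgfr2 could not be separated. In bulk tissue, fewer cells of a type and less RNA per cell cannot be told apart.

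The libraries matched their labels. Skp2, measured at 1.05 to 2.27 TPM (a length-scaled share of all transcripts in a library) in WT, was at 37.3 to 60.6 TPM in hSKP2-KI, and Pbsn, the gene that received the insert, fell from 3980 to 9232 TPM in WT to 93.0 to 174 TPM. The table has 1 Skp2 row, so transcripts of the human insert and of the mouse gene are not told apart. The ventral prostate secretory genes Sbp, Spink1 and Sbpl together made up 40.4 to 45.8% of TPM in WT and 32.1 to 34.3% in hSKP2-KI, and the 6 seminal vesicle markers summed to at most 0.656 TPM in any library. Because TPM values sum to a fixed total, such a fall raises the values of other genes. The median log2 fold change over the 13080 tested genes was 0.23 as deposited. It was -0.01 after each library was divided by its median ratio to the mean library (median-ratio scaling), which brings this median near 0 by design. The part of the secretory genes in the 0.23 was not tested. Markers of fibroblasts were higher in hSKP2-KI by 1.02 on average on the log2(TPM + 1) scale, those of macrophages by 0.93 and those of epithelial cells by 0.11. With median-ratio scaling these became 0.76, 0.68 and -0.16, so the direction of the epithelial markers turned. With 4 mice against 4, the exact permutation test cannot give a two-sided p below 0.0286, which was the p of each of these 3 differences as deposited (adjusted p = 0.0531 over the 13 marker lists).

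All 8 genes were expressed above the filter of 1 TPM in at least 4 of the 8 libraries. The 4 receptor genes and 2 stromal ligand genes, Fgf7 and Fgf10, were higher in hSKP2-KI, and none of the 8 was lower (limma, adjusted p under 0.05, called below). These 6 of 8 stand against 32.7% of all tested genes called higher and 1.23% called lower in the same comparison. After median-ratio scaling 3 of 8 were called higher, Met, Fgfr2 and Fgfr3, against 6.91% of all tested genes called higher and 4.25% lower. The 4 hSKP2-KI libraries lay above the 4 WT libraries for 5 of the 8 genes, against 34% of all tested genes (1.03% lay below), and for 4 of 8 after median-ratio scaling, against 10.3% (8.91% below). The median log2 fold change of the 8 genes was 0.57 as deposited and 0.40 after median-ratio scaling.

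**Figure D1:**
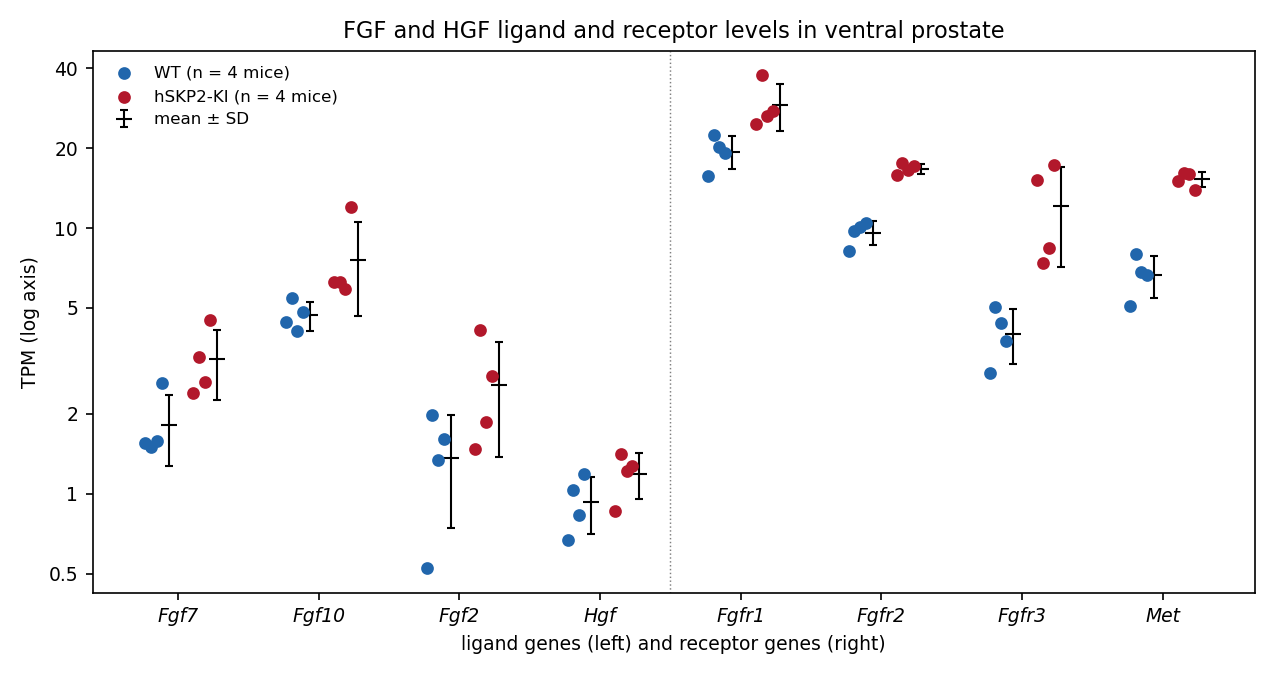
TPM (log axis) of the 4 ligand genes (left) and 4 receptor genes (right), with 1 point per mouse, WT in blue and hSKP2-KI in red, and the mean ± SD of 4 mice beside each group. The hSKP2-KI points lie wholly above the WT points for Fgf10, Fgfr1, Fgfr2, Fgfr3 and Met, and the groups overlap for Fgf7, Fgf2 and Hgf.

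Promoter sequence is shown for 3 genes that differed between genotypes, because they show how unlike the upstream regions of these genes are. RefSeq windows on GRCm38.p6 covering the 250 bases before a RefSeq transcript start were found for 7 of the 8 genes (9 windows), and Fgfr1 had no entry. The start used can lie inside the gene: the Met window and the second windows of Fgfr3 and Hgf lie after the first base of the gene, and the Fgf2 window runs past it. The windows of Fgf7 and Fgfr2 held 6 and 2 CG pairs at a GC content of 43.6% and 44%, whereas the first of 2 Fgfr3 windows held 19 CG pairs at 66.8% GC. The median over 32851 windows was 6 CG pairs and 52.4% GC, so Fgf7 was at the median in CG pairs and Fgfr2 below it. Fgf7 is at chr2:126034408-126034657 (plus strand), Fgfr2 at chr7:130266809-130267058 (minus strand) and the first 200 bases of Fgfr3 at chr5:33721474-33721673 (plus strand). Sequences read 5′ to 3′ on the gene's strand, and capitals mark the GC box, GGGCGG or its reverse complement CCGCCC.
Fgf7: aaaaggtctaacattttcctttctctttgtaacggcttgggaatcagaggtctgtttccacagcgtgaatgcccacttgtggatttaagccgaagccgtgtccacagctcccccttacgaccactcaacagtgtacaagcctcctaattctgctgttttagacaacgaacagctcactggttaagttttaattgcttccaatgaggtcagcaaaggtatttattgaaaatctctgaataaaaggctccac
Fgfr2: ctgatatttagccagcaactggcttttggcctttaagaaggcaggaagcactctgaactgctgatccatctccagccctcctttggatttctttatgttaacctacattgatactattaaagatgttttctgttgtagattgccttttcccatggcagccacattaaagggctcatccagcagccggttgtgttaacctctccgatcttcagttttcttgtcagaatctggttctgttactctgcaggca
Fgfr3: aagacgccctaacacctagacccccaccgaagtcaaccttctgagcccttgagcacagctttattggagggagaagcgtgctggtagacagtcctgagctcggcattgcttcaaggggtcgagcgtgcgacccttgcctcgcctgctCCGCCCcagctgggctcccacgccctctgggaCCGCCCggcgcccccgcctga
The GC box occurred in 32.7% of all windows when both strands were searched, and here in those of Fgf2, Fgf10, Fgfr3 and Met but not of Fgf7, Fgfr2 or Hgf. The Met window had the highest GC content of the set, 74%, with 3 GC boxes and 1 match to the AP-1 motif TGANTCA, which 6.75% of all windows held. None of the 9 windows held TATAAA or AGAACA, found in 12.4% and 16.1% of all windows. No GENCODE transcript start coincides with the RefSeq start used for Fgfr2. Both the GC-rich windows of Met and Fgfr3 and the GC-poor window of Fgfr2 belonged to genes called higher under both scalings.

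Fgf7 (Entrez 14178, GRCm38.p6 chromosome 2, 126034658 to 126091185), a stromal ligand for epithelial cells, was at 2.40, 3.28, 2.62 and 4.5 TPM in hSKP2-KI replicates 1 to 4 and at 1.55, 1.5, 1.58 and 2.61 TPM in WT replicates 1 to 4. The groups overlapped, since WT replicate 4 exceeded hSKP2-KI replicate 1. The means were 3.20 ± 0.943 and 1.81 ± 0.538 TPM (SD, n = 4 each), a 1.77-fold ratio, and the log2 fold change on the log2(TPM + 1) scale was 0.57 (SE 0.18, limma adjusted p = 0.0325). It was 0.38 after median-ratio scaling (adjusted p = 0.171). The call was also lost in 5 of 8 fits that left out 1 library, those without hSKP2-KI replicate 2 or 4 or WT replicate 1, 2 or 3, with the lowest value, 0.43 (adjusted p = 0.0816), without hSKP2-KI replicate 4.

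Fgf10 (Entrez 14165, chromosome 13, 118714699 to 118792573), a second stromal ligand for the same receptor form, was at 6.26, 6.24, 5.88 and 12.0 TPM in hSKP2-KI and at 4.41, 5.45, 4.10 and 4.81 TPM in WT. The groups did not overlap, and hSKP2-KI replicate 4 stood far above the other libraries. The means were 7.58 ± 2.92 and 4.69 ± 0.584 TPM, with a log2 fold change of 0.54 (SE 0.19, limma adjusted p = 0.0473). It was 0.32 after median-ratio scaling (adjusted p = 0.285), where the groups overlapped. Without hSKP2-KI replicate 4 the log2 fold change was 0.33 (adjusted p = 0.0719), and the call was lost in 6 of 8 fits that left out 1 library (hSKP2-KI replicate 1, 2 or 4, or WT replicate 1, 3 or 4). The same library held the highest levels of 3 of the 4 urothelial markers, Upk3a (12.5 TPM against at most 0.312 in the 7 others), Upk2 (13.6 against at most 4.79) and Krt20 (2.78 against at most 0.550). The most abundant urothelial marker, Upk1a, was at its lowest of the hSKP2-KI group there (651 TPM against 735 to 983). The urothelial list, most of which is Upk1a, summed to 679 to 988 TPM in hSKP2-KI, with replicate 4 the lowest, and to 392 to 650 TPM in WT. Both of its 2 tested genes were called higher as deposited, and Upk2 alone after median-ratio scaling, beside 32.7% and 6.91% of all tested genes. Of the skeletal muscle markers, Tnnt3 (26.5 TPM against at most 12.0) and Ckm (47.1 against at most 34.0) were highest in hSKP2-KI replicate 4. So were Myh1 (25.8 against at most 12.0) and Mylpf (19.7 against at most 11.4). Myh4 was highest in WT replicate 2 (12.6 against 12.3 in hSKP2-KI replicate 4) and Acta1 in hSKP2-KI replicate 1 (370.0 against 305.2). That list summed to 256 to 437 TPM in hSKP2-KI and 161 to 311 in WT. The part of these genes in the Fgf10 result was not tested.

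Fgf2 (Entrez 14173, chromosome 3, 37348477 to 37410106), a ligand for FGFR1 among others, was at 1.48, 4.13, 1.85 and 2.76 TPM in hSKP2-KI and at 0.524, 1.98, 1.33 and 1.61 TPM in WT. The groups overlapped, with hSKP2-KI replicate 2 highest and WT replicate 1 lowest. The log2 fold change was 0.58 with a 95% interval of 0.02 to 1.14, and it did not pass the threshold (limma adjusted p = 0.0945). With median-ratio scaling it was 0.42 (-0.13 to 0.96).

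Hgf (Entrez 15234, chromosome 5, 16553495 to 16619439), the stromal ligand of MET, was at 0.86, 1.41, 1.22 and 1.27 TPM in hSKP2-KI and at 0.67, 1.03, 0.83 and 1.19 TPM in WT. The groups overlapped, and the level was the lowest of the 8 genes in both genotypes, at percentile 1.24 of mean TPM among tested genes. Its log2 fold change was 0.18 with a 95% interval of -0.13 to 0.49 (limma adjusted p = 0.301), and 0.05 (-0.23 to 0.33) after median-ratio scaling. At this level the pseudocount of 1 shrinks the value, and the ratio of mean TPM was 1.28.

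Among the receptors, Fgfr2 (Entrez 14183, chromosome 7, 130162451 to 130266808), whose epithelial form binds FGF7 and FGF10, was the most even within each genotype. It was at 15.9, 17.5, 16.5 and 17.1 TPM in hSKP2-KI and at 8.22, 9.74, 10.0 and 10.5 TPM in WT. Every hSKP2-KI library was above every WT library by a wide gap. The means were 16.7 ± 0.712 and 9.62 ± 0.978 TPM, a 1.74-fold ratio, with a log2 fold change of 0.74 (SE 0.094, limma adjusted p = 0.000905) and of 0.50 after median-ratio scaling (adjusted p = 0.00418).

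Met (Entrez 17295, chromosome 6, 17463349 to 17573980), the HGF receptor, was at 15, 16.1, 16.0 and 13.9 TPM in hSKP2-KI and at 5.09, 8.00, 6.82 and 6.64 TPM in WT. The groups were again widely separated, with the lowest hSKP2-KI library above the highest WT library. The means were 15.3 ± 1.03 and 6.64 ± 1.19 TPM, a 2.30-fold ratio, with a log2 fold change of 1.10 (SE 0.12, limma adjusted p = 0.000502) and of 0.86 after median-ratio scaling (adjusted p = 0.00125). Met and Fgfr2 were called in each of the 8 fits that left out 1 library under either scaling.

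Fgfr3 (Entrez 14184, chromosome 5, 33721724 to 33737068), a further FGF receptor, was at 15.2, 7.39, 8.38 and 17.3 TPM in hSKP2-KI and at 2.85, 5.03, 4.39 and 3.77 TPM in WT. The groups did not overlap, and the hSKP2-KI libraries fell into a high pair, replicates 1 and 4, and a lower pair, replicates 2 and 3. The means were 12.1 ± 4.94 and 4.01 ± 0.929 TPM, a 3.01-fold ratio, with a log2 fold change of 1.32 (SE 0.25, limma adjusted p = 0.00441) and of 1.10 after median-ratio scaling (adjusted p = 0.0212). Without hSKP2-KI replicate 4, the library with the highest Upk2, Upk3a and Krt20, the value was 1.13 (adjusted p = 0.0105). Under median-ratio scaling the call was lost without WT replicate 1 (1.01, adjusted p = 0.0591) or WT replicate 4 (1.06, adjusted p = 0.0509).

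Fgfr1 (Entrez 14182, chromosome 8, 25518759 to 25575718), the receptor prominent in mesenchymal cells, was at 24.6, 37.6, 26.5 and 27.6 TPM in hSKP2-KI and at 15.8, 22.4, 20.2 and 19.2 TPM in WT. The groups did not overlap under either scaling, and hSKP2-KI replicate 2 was highest. The means were 29.1 ± 5.81 and 19.4 ± 2.77 TPM, with a log2 fold change of 0.55 (SE 0.14, limma adjusted p = 0.0148), and 0.29 after median-ratio scaling (adjusted p = 0.143).

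**Figure D2:**
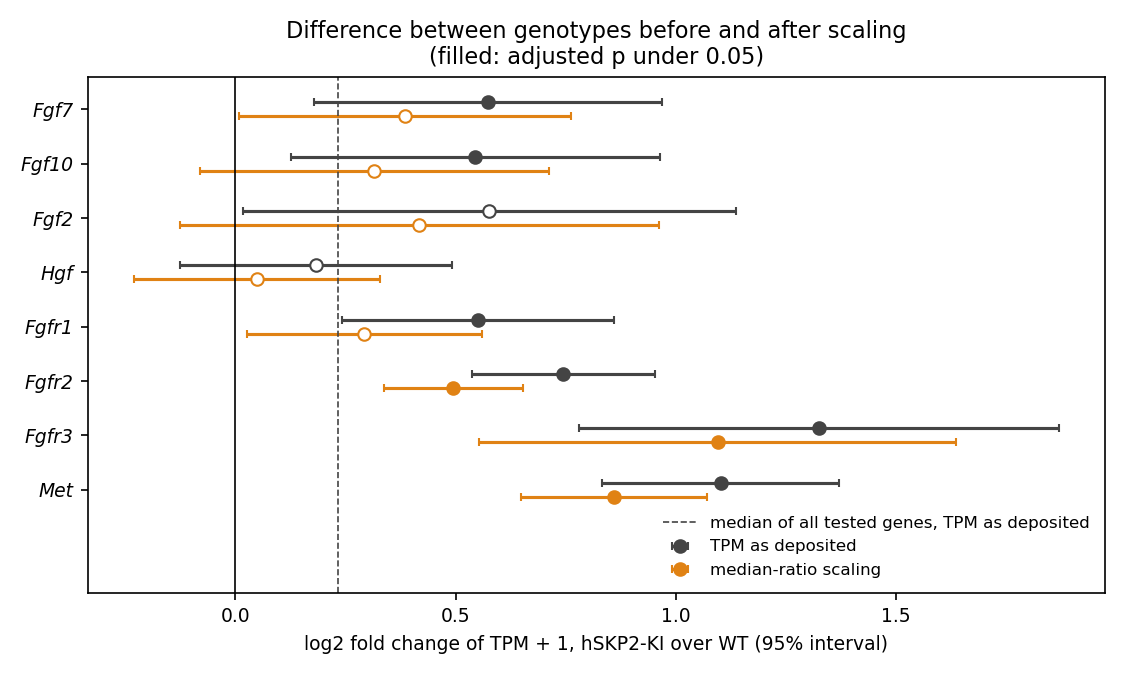
Log2 fold change of TPM + 1, hSKP2-KI over WT, for each gene with its 95% limma interval, from TPM as deposited (grey) and after median-ratio scaling (orange), with filled points at an adjusted p under 0.05 and a dashed line at the median of all tested genes as deposited, 0.23. Met, Fgfr2 and Fgfr3 are filled under both scalings, and Fgf7, Fgf10 and Fgfr1 as deposited alone.

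The order of TPM levels in WT was Fgfr1, Fgfr2, Met, Fgf10, Fgfr3, Fgf7, Fgf2 and Hgf, from highest to lowest. In hSKP2-KI the order was the same except that Fgfr3 stood above Fgf10. Neighbours in that order whose TPM values did not overlap in hSKP2-KI were Fgfr1 and Fgfr2, Fgf10 and Fgf7, and Fgf2 and Hgf. In WT they were Fgfr1 and Fgfr2, Fgfr2 and Met, and Fgfr3 and Fgf7. Thus the ranges of Fgfr2 and Met were separate in WT and overlapped in hSKP2-KI, although Fgfr2 was above Met in all 4 mice of each genotype. The receptor genes lay between percentiles 37.9 and 68.7 of mean TPM among tested genes and the ligand genes between percentiles 1.24 and 31.2.

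Each gene was next set against the stromal and epithelial markers of the same library, a difference that does not depend on library scaling apart from the pseudocount. All 10 fibroblast markers, among them Pdgfra, Dcn and Col1a1, were called higher as deposited (4 of 10 after median-ratio scaling), and their summed level was 992 to 1770 TPM in hSKP2-KI and 536 to 753 TPM in WT. Of the 8 epithelial markers 2 were called higher and 1 lower, with sums of 2197 to 2446 and 1952 to 2155 TPM. After median-ratio scaling 0 were called higher by limma and 1 lower. Beside these counts for both lists, 32.7% of all tested genes were called higher and 1.23% lower as deposited. After scaling the shares were 6.91% and 4.25%. Relative to the fibroblast marker mean, Fgf7, Fgf10 and Fgf2 differed by -0.45, -0.47 and -0.44 in hSKP2-KI minus WT on the log2 scale. These sizes moved with the setting: a pseudocount of 0.1 gave -0.26 for Fgf7 and -0.16 for Fgf2, and Fgf10 was -0.21 without hSKP2-KI replicate 2 and -0.76 without hSKP2-KI replicate 4. Without hSKP2-KI replicate 2, Fgf7 was -0.26. Hgf differed by -0.84 and Fgfr1 by -0.47, and for both every hSKP2-KI library lay below every WT library (two-sided exact permutation p = 0.0286 each, adjusted p = 0.114 over the 8 genes). The Hgf value was -0.72 with a pseudocount of 0.1, -0.71 with median-ratio scaling and -0.92 to -0.68 with 1 library left out. That of Fgfr1 was -0.48, -0.46 and -0.52 to -0.39 in the same settings. Fgfr2 differed by -0.27 (exact p = 0.171), and by -0.09 without hSKP2-KI replicate 2. Met differed by 0.08 (exact p = 0.686), with -0.03 without hSKP2-KI replicate 1 and 0.26 without hSKP2-KI replicate 2. Fgfr3 differed by 0.30 (exact p = 0.457), with 0.06 and 0.05 without hSKP2-KI replicate 1 or 4 and 0.70 without hSKP2-KI replicate 2. All of these differences depend on the markers averaged, whose log2 fold changes as deposited ran from 0.61 (Pdgfra) to 1.81 (Lum). Those of Fgf7, Fgf10, Fgf2 and Fgfr1 were 0.57, 0.54, 0.58 and 0.55, near that of Pdgfra.

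Relative to the epithelial marker mean, Met was higher in hSKP2-KI by 0.99, Fgfr3 by 1.21, Fgfr2 by 0.63 and Fgf10 by 0.43 on the log2 scale. In each of these 4 genes all 4 hSKP2-KI libraries lay above the WT libraries (exact permutation p = 0.0286, adjusted p = 0.0571). Without hSKP2-KI replicate 4 the Fgf10 difference was 0.21. Fgf7 differed by 0.46 (exact p = 0.0857) and Fgf2 by 0.47 (exact p = 0.229), the latter 0.26 without hSKP2-KI replicate 2, 0.29 without WT replicate 1 and 0.78 with a pseudocount of 0.1. Fgfr1 differed by 0.44 (exact p = 0.0571) and Hgf by 0.07 (exact p = 0.486). The Hgf value was 0.22 with a pseudocount of 0.1 and 0.21 with median-ratio scaling. No adjusted p reached 0.05 in these families, and the design allows no raw p below 0.0286.

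**Figure D3:**
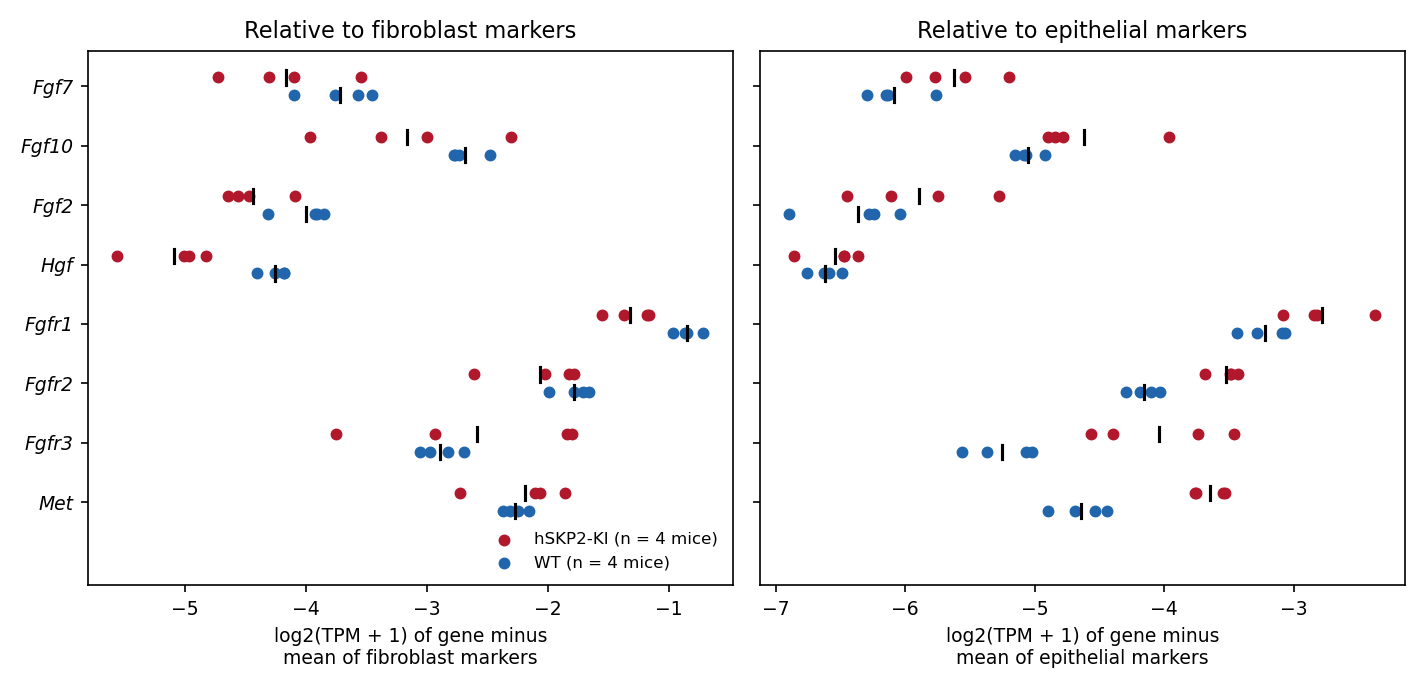
Log2(TPM + 1) of each gene minus the mean of the fibroblast markers (left) or of the epithelial markers (right) in the same library, with 1 point per mouse (hSKP2-KI red, WT blue, n = 4 each) and black bars at the group means. Hgf and Fgfr1 lie lower in hSKP2-KI against fibroblast markers, and Met, Fgfr2, Fgfr3 and Fgf10 lie higher against epithelial markers, without overlap.

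Genes were also compared within each library in 4 pairs, ligand with receptor, ligand with ligand or receptor with receptor. Hgf minus Met was -2.90 ± 0.167 in hSKP2-KI and -1.98 ± 0.168 in WT on the log2(TPM + 1) scale (SD, n = 4 each), a difference of -0.92 without overlap (exact permutation p = 0.0286, adjusted p = 0.114). The balance of Fgf7 to Fgfr2 differed by -0.17 (exact p = 0.257, and -0.01 with a pseudocount of 0.1), that of Fgf10 to Fgf7 by -0.03 (exact p = 0.886) and that of Fgfr1 to Fgfr2 by -0.19 (exact p = 0.171). No pair passed the threshold once adjusted over the 4.

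Of 78 other genes of the 2 pathways, 57 passed the filter, and 23 of these were called higher and 0 lower, against 32.7% and 1.23% of all tested genes, with a median log2 fold change of 0.32 against 0.23. After median-ratio scaling 10 were called higher and 2 lower, against 6.91% and 4.25%, with a median of 0.14 against -0.01. The heparan sulfate group, which holds the core proteins and enzymes of the FGF co-receptor, had 12 of 14 genes called higher as deposited and 6 after median-ratio scaling, with medians of 0.66 and 0.41, beside the same 32.7% and 6.91% of all tested genes. The groups did not overlap for 11 of the 14 as deposited, against 34% of all tested genes, and for 6 after scaling, against 10.3%.

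Among the heparan sulfate genes, Gpc4, a glypican, was at 20.6 ± 2.35 TPM in hSKP2-KI and 9.10 ± 0.702 in WT, a log2 difference of 1.10 (limma adjusted p = 0.000187) that stayed called after median-ratio scaling (0.85). Sulf1, which removes sulfate from heparan sulfate, was at 19.6 ± 2.90 and 9.63 ± 1.77 TPM (log2 fold change 0.96, scaled 0.71). The syndecans Sdc3 and Sdc2 had log2 fold changes of 0.98 and 0.81, and 0.72 and 0.55 after scaling, all called. Sdc4, the most abundant gene of the group at 103 ± 4.73 TPM in hSKP2-KI and 82.4 ± 7.93 in WT, was called as deposited (0.32) and not after scaling (0.06, adjusted p = 0.713). The fibroblast markers moved with this group, by 1.02 in mean log2(TPM + 1), and their part in it was not tested.

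The genes that activate HGF gave 3 of 10 tested genes called higher, near the 32.7% of all tested genes, and again 3 after median-ratio scaling, with 1 lower in that fit, beside 6.91% and 4.25%. Hpn, which encodes the HGF-cleaving protease hepsin, was at 7.19 ± 1.02 TPM in hSKP2-KI and 3.45 ± 1.05 in WT, a log2 difference of 0.90 (limma adjusted p = 0.00400, scaled 0.68 and 0.0188). Plaur, the urokinase receptor, and Plat, tissue plasminogen activator, had log2 fold changes of 0.81 and 0.76, and 0.60 and 0.52 after scaling. Spint2, an inhibitor of these proteases and the most abundant of the group, was at 777 ± 107 and 635 ± 45.8 TPM and was not called (0.28, adjusted p = 0.0547, and 0.01 after scaling). The related inhibitor Spint1, named after its values were seen, was the 1 gene called lower after scaling (-0.49, adjusted p = 0.0357), against -0.23 as deposited (adjusted p = 0.238).

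Of 13 feedback inhibitors and ETS factors 4 were called higher, and 1 after median-ratio scaling, shares near those of all tested genes (32.7% and 6.91%). Etv5, an ETS transcription factor induced by FGF signalling, was at 3.22 ± 0.663 and 1.66 ± 0.232 TPM, with log2 fold changes of 0.66 (limma adjusted p = 0.00760) and 0.47 after scaling (adjusted p = 0.0345). The inhibitors Spred1 and Il17rd were called as deposited (0.59 and 0.48) and not after scaling (0.34 and 0.27), while the value for Spry1 was 0.15 (adjusted p = 0.363) and turned to -0.11 after scaling. Among 13 receptor adaptors 3 were called higher as deposited, a smaller share than the 32.7% of all tested genes, and 0 after scaling by limma, with a scaled median of -0.01. Grb2, which links receptors to RAS, measured 0.27 higher on the log2 scale as deposited and 0.00 after scaling, and the phosphatase gene Ptpn11 0.21 (adjusted p = 0.0997) and -0.05.

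**Figure D4:**
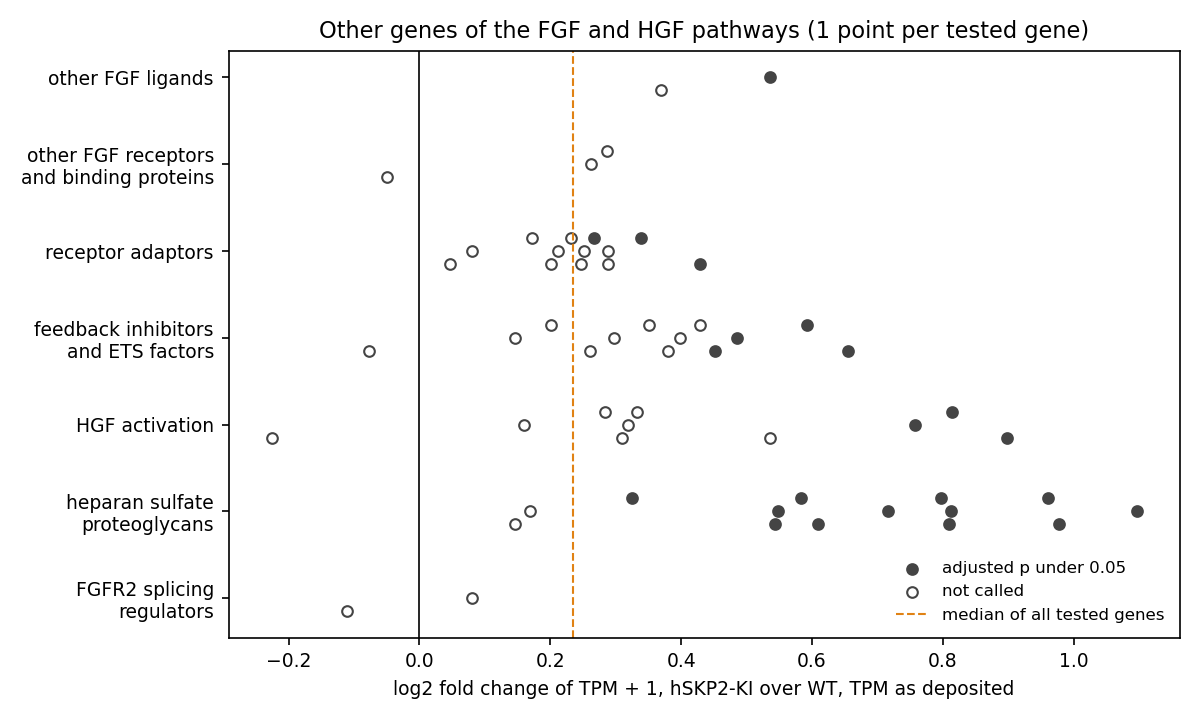
Log2 fold change of TPM + 1, hSKP2-KI over WT, as deposited, for each tested gene of 7 groups of FGF and HGF pathway genes, filled where the adjusted p was under 0.05. The dashed line marks the median of all tested genes, 0.23, and 12 of the 14 heparan sulfate genes are filled.

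Of 19 other FGF ligand genes only Fgf1 and Fgf11 passed the filter, and 7 were listed at 0 TPM in all libraries. Fgf1, which binds all FGF receptors, was at 43.6 ± 7.79 TPM in hSKP2-KI and 29.8 ± 6.39 in WT, well above the levels of the 4 ligand genes described here. It was called as deposited (log2 fold change 0.54, limma adjusted p = 0.0244) but not after median-ratio scaling (0.27, adjusted p = 0.204). None of 3 tested genes for other FGF receptors and binding proteins was called, and Fgfbp1, a carrier that releases FGFs from the matrix, was at 26.9 ± 3.92 and 28.1 ± 6.07 TPM (-0.05, and -0.31 after scaling). Esrp1, the splicing regulator that favours the epithelial form of Fgfr2, was at 85.6 ± 5.23 TPM in hSKP2-KI and 81.0 ± 5.42 in WT (0.08, adjusted p = 0.403). After median-ratio scaling its direction turned to -0.19 (adjusted p = 0.111), with every hSKP2-KI library below every WT library. Its relative Esrp2, named after its values were seen, was at -0.11 on the log2 scale (adjusted p = 0.304) and was called lower after scaling (-0.37, adjusted p = 0.0172).

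Within genotypes, the tested genes most like each of the 8 were taken as the 3 with the highest Pearson correlation of log2(TPM + 1) over the 8 libraries after genotype means were subtracted. The highest per gene were Cd302 for Fgf2 (0.985), Fggy for Fgf7 (0.964), Dhdh for Fgf10 (0.992), Dnm1 for Fgfr1 (0.986), Shtn1 for Fgfr2 (0.990), Cdc42se1 for Fgfr3 (0.992), Bnip3l for Hgf (0.989) and AW011738 for Met (0.990). The next were Atg14 and Nuak1 for Fgf2, Gm36856 and Nek8 for Fgf7, Slc35d1 and Hs3st3a1 for Fgf10, Bmp1 and Tti2 for Fgfr1, Tnfrsf14 and Adam17 for Fgfr2, Mex3d and Gm13648 for Fgfr3, Nudt21 and Foxj3 for Hgf, and Icmt and Ap2b1 for Met. These are the maxima of 13080 genes over few libraries that share depth and tissue makeup, and are given as a description.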

How the data were processed

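Ventral prostate mRNA of 4 hSKP2-KI and 4 WT mice was grouped by GEO's labels. The authors deposited 1 table of TPM per gene, made with CLC Genomics Workbench; the submitters' processing notes name builds mm10 and GRCm38. The program version, annotation and counting options are not given in the sources used here. The paper names a number of paired-end reads for the sequencing. TPM keeps no read counts, so the depth of each library is unknown and no counting interval was given. No other sample column was present. Promoter windows and loci were read from RefSeq on GRCm38.p6.

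Genes with at least 1 TPM in at least 4 libraries (13080 of 36333) were tested on log2(TPM + 1) with limma 3.58.1 (R 4.3.3, mean-variance trend, no covariate) and Benjamini-Hochberg adjustment over all of them; an adjusted p under 0.05 was called. Fold changes on this scale understate changes of low genes. Single values were tested by two-sided exact permutation over 70 assignments. Other work used Python 3.11.15, pandas 2.3.3 and matplotlib 3.10.9. The fitting script was tested on simulated data. Alternatives were a pseudocount of 0.1, no filter, a mean of at least 5 TPM, median-ratio and quantile scaling, removal of the 20 most abundant genes, a replicate block, and each library left out.

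Named were all 8 members; from each pathway list up to 4 called genes without overlap, by size, and its most abundant gene; and the 3 most correlated genes per member. Members and lists were chosen with earlier results of these data known.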

Additional observations from a re-analysis of the deposited data

Results flagged for a closer look

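In 92 groups of 4 libraries, 6 had a highest or lowest library whose gap to the nearest other exceeded Dixon's critical share of the group's range, and chance flags about 1 in 20 groups. Among TPM levels these were Fgf7 in WT replicate 4 (2.61 TPM) and Fgf10 in hSKP2-KI replicate 4 (12.0 TPM). Of differences on the log2(TPM + 1) scale, WT replicate 1 stood apart for Fgf2 minus fibroblast markers (-4.31) and for Fgf10 minus fibroblast markers (-2.48). hSKP2-KI replicate 4 stood apart for Fgf10 minus epithelial markers (-3.96) and hSKP2-KI replicate 2 for Fgfr1 minus Fgfr2 (1.06).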

How the results depend on the processing

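Met and Fgfr2 were called higher under every alternative run. With no filter on low values, 2 of the 8 genes were called, against 3 each with median-ratio scaling, quantile normalization or the 20 most abundant genes removed. Genes called in either direction numbered 4433 of 13080 tested as deposited and 1653 of 36333 with no filter. They numbered 1460 of 13080 with median-ratio scaling, 1317 of 13080 with quantile normalization and 1321 of 13060 without the 20 most abundant genes. With no filter more genes were tested, and limma no longer called Fgf7 (0.57), Fgf10 (0.54), Fgfr1 (0.55) and Fgfr3 (1.32, adjusted p = 0.0603). Fgf7, Fgf10 and Fgfr1 were 0.38, 0.32 and 0.29 with median-ratio scaling, 0.25, 0.24 and 0.31 with quantile normalization and 0.47, 0.36 and 0.32 without the 20 most abundant genes, and were called in none of these. Hgf, not called in any fit, was -0.10 with quantile normalization. The cause was not tested. A mean of at least 5 TPM gave no value for Fgf2, Fgf7 and Hgf.

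Leaving out 1 library, the deposited values called 4 to 6 of the 8 genes and 2993 to 4677 of the 13080 tested genes in all, with Fgf7 at 0.43 to 0.70, Fgf10 at 0.33 to 0.63, Fgfr1 at 0.43 to 0.62 and Fgfr3 at 1.13 to 1.51. The same with median-ratio scaling, chosen after seeing the data, called 2 to 3 of the 8, with Fgf7 at 0.26 to 0.50, Fgf10 at 0.11 to 0.40, Fgfr1 at 0.17 to 0.35 and Fgfr3 at 0.92 to 1.28. No total over all tested genes was taken for these scaled fits. With all libraries kept, median-ratio scaling called 6.91% of tested genes higher and 4.25% lower. Exact tests cannot give a p below 0.0571 with a library left out.

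Deviations of same-numbered libraries from their genotype means had correlations of 0.22, -0.11, 0.17 and -0.01. With 4 libraries per genotype these low values cannot decide whether the numbers pair the mice, and the labels state no pairing. With a replicate block Fgf2 was called (0.58, limma adjusted p = 0.0154, against 0.0945 without the block). The block called 5128 genes in all, against 4433 without it. The depth of each library is unknown and sets no stated limit here.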

Other observations

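Markers of other cells were compared on the mean log2(TPM + 1) of each list, as deposited unless stated. Smooth muscle markers were higher in hSKP2-KI by 0.77 (0.51 after median-ratio scaling) and endothelial markers by 0.60 (0.37), each without overlap as deposited (exact permutation p = 0.0286, adjusted p = 0.0531). Basal epithelial markers differed by 0.47 (exact p = 0.0571, 0.22 after scaling), leukocyte markers by 0.73 (exact p = 0.114, 0.49 after scaling) and Schwann cell markers by 0.31 (exact p = 0.200, 0.11 after scaling). Skeletal muscle and adipocyte markers differed by 0.30 (exact p = 0.600, 0.12 after scaling) and 0.09 (exact p = 0.857, -0.16 after scaling). With 1 library left out, chosen after seeing the data, the skeletal muscle difference was -0.34 without hSKP2-KI replicate 4 and 0.83 without WT replicate 2, the adipocyte difference -0.46 without WT replicate 3 and 0.44 without hSKP2-KI replicate 1, and the Schwann cell difference 0.20 without WT replicate 1. Urothelial markers differed by 0.84 (exact p = 0.0286, 0.69 after scaling) and by 0.45 without hSKP2-KI replicate 4. The ventral luminal markers, among them Pbsn, the gene that received the insert, differed by -1.08 (exact p = 0.0286, -1.35 after scaling).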
